A study of Caenorhabditis elegans with 27 samples.

Results

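The major sperm protein genes of Caenorhabditis elegans were followed across 9 groups of libraries. Members were taken by name alone, as every gene whose name in the deposited comparison tables begins with msp-. No measured value decided which genes are members, but the family was chosen with earlier results of these data known. The name rule gave 34 genes, and the count table held all of them among its 45461 features. A count above 0 was seen for 23650 features.

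The study fed N2 wild-type hermaphrodites, harvested whole as young adults, with bacteria producing double-stranded RNA. The groups were gld-2(RNAi), gld-4(RNAi) and control RNAi, the last being the empty feeding vector L4440. From each, RNA was sequenced from the whole lysate (input) and from 2 pools of a sucrose gradient, the polysomal (P) and the non-polysomal (NP) mRNA. Each of the 9 groups had 3 libraries, 27 in all, made from RNA selected for poly(A) tails. The knockdown is by feeding in wild-type animals and is not a deletion of either gene. By the description of the study gld-2(RNAi) animals were sterile and gld-4(RNAi) animals fertile. The comparisons ask whether reducing either cytoplasmic poly(A) polymerase, the enzymes that lengthen poly(A) tails outside the nucleus, changes the amount of an mRNA or its place in the gradient.

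Major sperm protein (MSP) is the most abundant protein of nematode sperm. It assembles into the filaments that push the pseudopod of the crawling spermatozoon, a task that actin performs in other crawling cells. Released from sperm, it also acts as a signal that makes oocytes mature and the gonadal sheath contract, in part through the Eph receptor VAB-1. Its mRNAs are made in spermatocytes. In a hermaphrodite these cells are formed in late larval life, before the germ line switches to oocytes, so that an adult carries finished sperm and few spermatocytes.

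The family is built of near copies. By RefSeq (assembly WBcel235), 15 members lie on chromosome II and 19 on chromosome IV, and 28 of the 34 have the same length of 384 bases. In 33 of the 34 the length is a multiple of 3. Of the rest, msp-58 and msp-74 are the shortest at 234 bases, and msp-71 is the longest at 402 bases. RefSeq lists 31 members as protein coding and 3 as pseudogenes (msp-42, msp-52 and msp-71). Neighbours are common: 23 members sit in 10 clusters with at most 2 other genes between successive members. The largest clusters hold 3 members, such as msp-55, msp-57 and msp-53. No member shares exon bases with another coding gene. The authors counted only reads that map to a single place in the genome. Reads from stretches that members share were therefore lost, every level given for a member is an undercount of unknown size, and a read assigned to one member may come from a near copy that differs from the reference.

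The libraries held 12160686 to 18132556 counts (median 15121697). Each target was low in its own RNAi. In the input, gld-2 mRNA had 4.22, 11.1 and 6.59 CPM (counts relative to library size, scaled by edgeR's TMM factors over the 27 libraries) in gld-2(RNAi), against 61.6, 94.8 and 117 in control RNAi. The gld-4 mRNA had 9.37, 21.4 and 19.8 CPM in gld-4(RNAi), against 129, 206 and 216 in control RNAi. In gld-2(RNAi) input it had 70.1, 145 and 138 CPM, overlapping control RNAi. In NP it was lower in gld-2(RNAi), at 54.1, 61.2 and 67.6 CPM, against 155, 163 and 218 in control RNAi. In P it was also lower, at 52.4, 73.6 and 70.5 CPM, against 156, 122 and 172 in control RNAi. In every one of the 9 groups the library of replicate 1 held the most msp counts, 2.06 to 8.37 times the mean of replicates 2 and 3, and the members' medians without these libraries, singly or together, stand beside the comparisons with control RNAi. The labels number the replicates without saying whether they are separate cultures, so p-values measure the spread between these libraries only. Libraries of the same number deviated together from their group means, as did some of different numbers. A blocked fit, which compares libraries within a replicate number, is given wherever it changes a call.

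Members differed widely in level. Averaged over all 27 libraries, msp-36 was the highest at 113.5 CPM, or 296 CPM per kilobase of its length. It was followed closely by msp-31 (113 CPM), msp-59 (112.5), msp-19 (106), msp-79 (105) and msp-81 (104). These 6 genes share the length of 384 bases, and the last of them stood at 0.918 of the first. Their order is not resolved, since the highest member was msp-59 in gld-2(RNAi) input and msp-81 in gld-4(RNAi) and control RNAi input. Together the 6 genes made up 28.1% of the family's summed CPM in gld-2(RNAi) input, 28.8% in gld-4(RNAi) input and 27.2% in control RNAi input. At the other end, msp-32, msp-63, msp-74 and msp-42 had 3.90, 4.56, 4.95 and 5.87 CPM per kilobase. Spearman's rho of the mean input levels over the 34 members was 0.90 between gld-2(RNAi) and control RNAi and 0.90 between gld-4(RNAi) and control RNAi, given as a description, since members share libraries and reads.

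**Figure D1:**
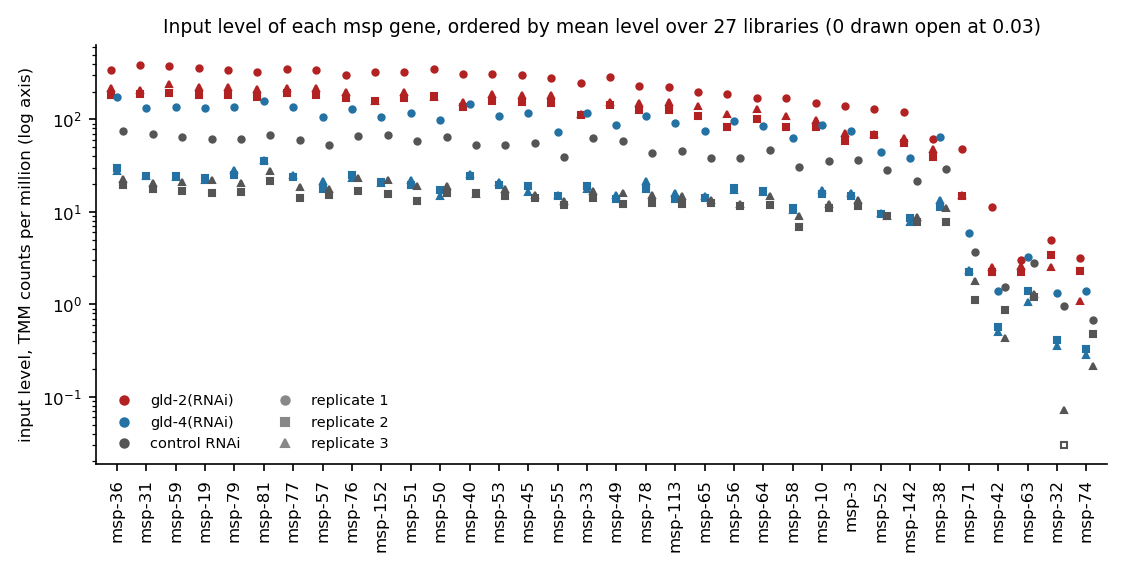
Input level of each of the 34 msp genes in TMM-scaled CPM (log axis), 1 symbol per library, with colours for gld-2(RNAi), gld-4(RNAi) and control RNAi and shapes for the replicate number. The gld-2(RNAi) libraries lie above all control RNAi libraries for 33 of the 34 genes, msp-63 being the exception, and the circles of replicate 1 lie above the other replicates of the same colour.

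The summed counts of all 34 genes do not depend on which near copy a read was assigned to. In the input they took 0.688%, 0.333% and 0.334% of the counts of gld-2(RNAi) libraries 1, 2 and 3. They took 0.262%, 0.0443% and 0.0447% in gld-4(RNAi), and 0.128%, 0.0334% and 0.0387% in control RNAi. Every gld-2(RNAi) library thus exceeded every other input library, whereas the gld-4(RNAi) and control RNAi libraries overlapped. Taken within a replicate number, the family was 5.37, 9.97 and 8.64 times higher in gld-2(RNAi) than in control RNAi. For gld-4(RNAi) over control RNAi the same ratios were 2.05, 1.33 and 1.15.

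The gradient fractions showed the same order. In P the family took 0.969%, 0.440% and 0.446% of the counts in gld-2(RNAi), 0.538%, 0.0650% and 0.0636% in gld-4(RNAi), and 0.211%, 0.0464% and 0.0458% in control RNAi. In NP it took 0.526%, 0.195% and 0.187% in gld-2(RNAi), 0.124%, 0.0221% and 0.0231% in gld-4(RNAi), and 0.0701%, 0.0161% and 0.0210% in control RNAi. In NP, as in P, the lowest of these 3 conditions was control RNAi at each replicate number. The ratios of gld-2(RNAi) over control RNAi were 4.58, 9.49 and 9.76 in P and 7.51, 12.1 and 8.92 in NP. In a bulk sample of whole worms, more msp mRNA per cell and more cells that contain it cannot be told apart.

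**Figure D2:**
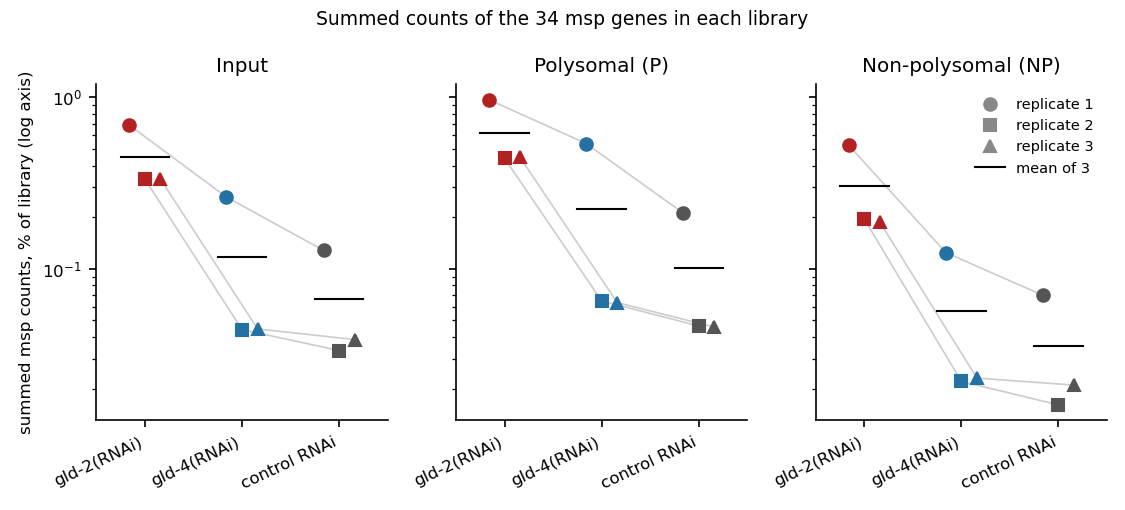
Summed counts of the 34 msp genes as a percentage of each library's counts (log axis), in input, P and NP, with 1 symbol per library, grey lines joining libraries of the same replicate number and a bar at the mean of 3. At each replicate number gld-2(RNAi) is the highest, gld-4(RNAi) the next and control RNAi the lowest, and replicate 1 lies above replicates 2 and 3 in every group.

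Gene by gene, the rise in gld-2(RNAi) input included every member that could be tested. A gene was tested if its mean over the 9 inputs was at least 100 counts after normalization, a filter passed by 7418 genes and by 30 of the 34 members. Of these 30, 29 reached that mean in control RNAi alone, and msp-71 passed only through its level in gld-2(RNAi). All 30 were called higher by edgeR's quasi-likelihood test (adjusted p at most 0.05 over all genes tested, and a change of at least 2-fold) and 0 lower. Of all genes tested, 8.22% were called higher and 12.2% lower. The members' log2 fold changes had a median of 3.01 and ran from 1.81 to 3.83, while the median over all genes was 0.03. With library size alone as the scaling the members' median was 2.80 and that of all genes -0.16, with the 30 members still called, but the split of all calls moved to 432 higher and 1231 lower, against 610 and 904 with TMM. Without replicate 1 of both groups the members' median was 3.4, without that of gld-2(RNAi) alone 2.49 and without that of control RNAi alone 3.85. Taken over all 34 members, 33 had every gld-2(RNAi) library above every control RNAi library, a separation found for 18.7% of the genes tested.

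The highest members had similar values. For msp-36, gld-2(RNAi) inputs held 340, 183 and 218 CPM, against 75.2, 19.7 and 22.4 CPM in control RNAi, a log2 change of 2.86 ± 0.59 (SE, edgeR adjusted p = 0.0079). For msp-31 they held 391.8, 188 and 208 CPM, against 70.2, 17.4 and 20.5 CPM in control RNAi (3.08 ± 0.64, edgeR adjusted p = 0.0081). For msp-59 they held 381, 194 and 244 CPM, against 64.8, 16.96 and 20.8 CPM in control RNAi (3.20 ± 0.59, edgeR adjusted p = 0.0053). In all 3 genes the lowest gld-2(RNAi) library was more than 2-fold above the highest control RNAi library, that of replicate 1. The log2 changes of msp-19, msp-79 and msp-81 were 3.15, 3.12 and 2.80.

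The largest changes were those of msp-71, msp-55 and msp-57. The annotated pseudogene msp-71 had 48.4, 14.8 and 15.3 CPM in gld-2(RNAi) input, against 3.65, 1.11 and 1.78 CPM in control RNAi, a log2 change of 3.83 ± 0.73 (edgeR adjusted p = 0.0059). Its neighbours in rank, msp-55 and msp-57, belong to the same cluster on chromosome IV. For msp-55 the gld-2(RNAi) inputs held 282, 152 and 181 CPM, against 39.3, 11.9 and 12.97 CPM in control RNAi (3.46 ± 0.56, edgeR adjusted p = 0.0032). For msp-57 the log2 change was 3.33 ± 0.56. The order among these members was not tested and is not resolved. Each standard error is that of a member's own change, not of a difference between members. The smallest change belonged to msp-38, which had 61.0, 38.8 and 47.8 CPM in gld-2(RNAi), against 29.2, 7.80 and 10.9 CPM in control RNAi (1.81 ± 0.52, edgeR adjusted p = 0.026). Its groups did not overlap either.

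Median changes were close across positions and annotations, a description with no test. The 11 tested members on chromosome II had a median log2 change of 2.96 and the 19 on chromosome IV one of 3.04. The 27 tested coding members of 384 bases had a median of 3.01, and the 3 others had 3.83 (msp-71), 3.18 (msp-58) and 2.73 (msp-52). The 20 tested members in clusters had a median of 3.01 and the 10 single ones 2.96. Another 4 members were too low for the filter. With a mean of at least 10 counts as the filter, msp-32 (3.5 ± 1.05, edgeR adjusted p = 0.036), msp-42 (2.55 ± 0.83, edgeR adjusted p = 0.047) and msp-74 (2.30 ± 0.62, edgeR adjusted p = 0.025) were also called higher. Of these, msp-32 and msp-74 reached that mean only in gld-2(RNAi). Only msp-63 was not called, at 0.61 ± 0.46 (edgeR adjusted p = 0.35). Its raw counts were 39, 29 and 34 in gld-2(RNAi) input, against 29, 15 and 18 in control RNAi, and these groups met at 29.

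**Figure D3:**
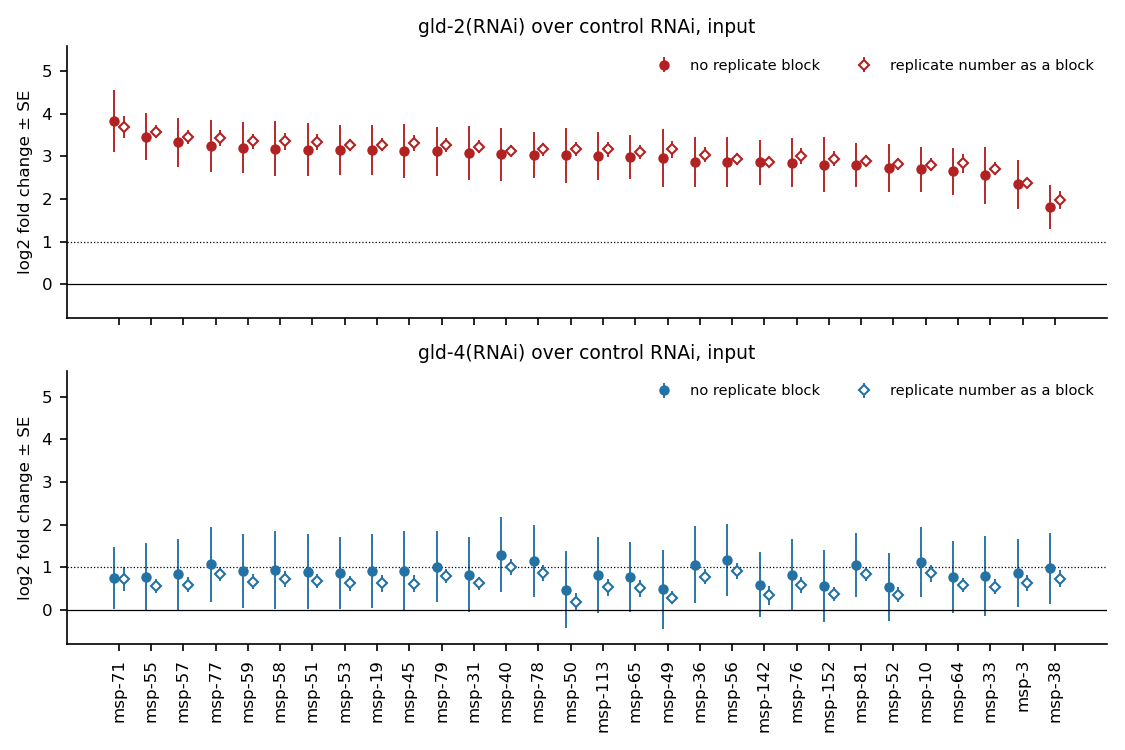
Log2 fold change over control RNAi in the input (± SE) of the 30 tested msp genes in gld-2(RNAi) (upper panel) and gld-4(RNAi) (lower panel), filled symbols without and open symbols with the replicate number as a block; the dotted line marks 2-fold. In gld-2(RNAi) all values lie between 1.81 and 3.83 without the block, and in gld-4(RNAi) between 0.48 and 1.30, with error bars that the block narrows.

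The 2 gradient fractions of gld-2(RNAi) gave changes of like size. In NP, 30 of 30 tested members were called higher and 0 lower in gld-2(RNAi) against control RNAi, where 8.87% of all genes were called higher and 11.3% lower. The members' median log2 change was 3.32, led by msp-71 (4.23 ± 1.08), msp-55 (3.87 ± 0.83) and msp-45 (3.61 ± 0.87), and the lowest was msp-38 (2.24 ± 0.78, edgeR adjusted p = 0.047). Without replicate 1 of both groups the median was 3.46, without that of gld-2(RNAi) alone 2.48 and without that of control RNAi alone 4.35. Leaving out control RNAi replicate 2 left 19 members called (6.81% of all genes), and leaving out control RNAi replicate 3 left 12 (6.98%). With no filter on low counts, 3 members were called in NP (9.05% of all genes) and 4 in P (6.27%). In P, 25 of 30 were called higher and 0 lower, against 5.42% and 8.68% of all genes. Library size alone gave 496 higher and 1105 lower calls over all genes in NP and 294 and 848 in P, where TMM gave 658 and 840 in NP and 402 and 644 in P. The median log2 change in P was 2.80, and the largest were those of msp-55 (3.22 ± 0.80, edgeR adjusted p = 0.025), msp-57 (3.12 ± 0.88) and msp-77 (3.06 ± 0.84).

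The 5 members not called in P were msp-52, msp-33, msp-64, msp-3 and msp-38, with log2 changes of 2.68, 2.39, 2.44, 2.19 and 1.5 and edgeR adjusted p-values of 0.053 to 0.16. With the replicate number as a block all 30 were called, 5.92% of all genes being called higher in that fit. Leaving out control RNAi replicate 2 or 3 left 0 of 30 called in P (3.09% and 2.56% of all genes), while leaving out control RNAi replicate 1 left 30 (6.38%). Without gld-2(RNAi) replicate 1, 2 or 3 the numbers called were 3, 3 and 1, beside 5.70%, 4.42% and 3.92% of all genes. The median in P was 3.44 without replicate 1 of both groups, 2.18 without that of gld-2(RNAi) alone and 4.07 without that of control RNAi alone. The member with the smallest change, msp-38, had 87.3, 37.3 and 40.9 CPM in gld-2(RNAi) P, against 52.5, 8.21 and 10.3 CPM in control RNAi P. Its replicate 1 of control RNAi lies above the gld-2(RNAi) libraries 2 and 3, although gld-2(RNAi) was higher at every replicate number.

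In gld-4(RNAi) the family was not called changed in the input. The members' median log2 change was 0.87, between 0.48 (msp-50) and 1.30 (msp-40), but 0 of 30 were called higher and 0 lower, 0 had an unadjusted p under 0.05, and DESeq2 also called 0. Of all genes, 0.391% were called higher and 0.984% lower. For 0 of the 34 members did the gld-4(RNAi) libraries all lie above the control RNAi libraries, a separation found for 15.9% of genes. For msp-36 the gld-4(RNAi) inputs held 174, 29.5 and 27.8 CPM, against 75.2, 19.7 and 22.4 CPM in control RNAi (1.07 ± 0.90, edgeR adjusted p = 0.46). For msp-40 they held 145, 24.2 and 25.7 CPM, against 52.5, 16.1 and 15.5 CPM in control RNAi (1.30 ± 0.88, edgeR adjusted p = 0.36). In both genes gld-4(RNAi) was higher at every replicate number, and the gap was widest at replicate 1.

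With the replicate number as a block, 22 of the 30 members passed an adjusted p of 0.05 in gld-4(RNAi) input, all of them higher, among 23.8% of all genes that did so in that direction. Only msp-40 also reached 2-fold (log2 change 1.01 ± 0.19, edgeR adjusted p = 0.0048), as did 1.11% of all genes. The blocked median was 0.63. Without a block, its size and sign moved with replicate 1. Without gld-4(RNAi) replicate 1 alone the median log2 change of the members was -0.52 (1 of 30 positive), without control RNAi replicate 1 alone it was 1.72, and without replicate 1 of both groups it was 0.30 (28 of 30 positive, 0 called, 9 past the adjusted p as were 22.2% of all genes in that direction).

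The fractions of gld-4(RNAi) were alike in this. In NP the members' median log2 change was 0.76, 0 of 30 were called in either direction, 0 had an unadjusted p under 0.05, and DESeq2 called 0, with 0.876% of all genes called higher and 0.566% lower. The block took 17 members past an adjusted p of 0.05, in a fit where 22.5% of all genes did so in that direction, and 0 of these members were called. In P the median was 1.21, 0 of 30 were called in either direction, 0 had an unadjusted p under 0.05, and DESeq2 called 0, with 0.337% of all genes called higher and 0.243% lower. The block called only msp-36 (1.04 ± 0.20, edgeR adjusted p = 0.047), beside 1.25% of all genes. Without gld-4(RNAi) replicate 1 alone the members' median was -0.69 in NP and -0.90 in P. Without control RNAi replicate 1 alone it was 1.78 in NP and 2.47 in P. With replicate 1 of both groups left out it was 0.34 in NP and 0.36 in P, and 0 members were called. In P, 21 members then passed an adjusted p of 0.05, as did 24% of all genes in that direction. In NP 0 members did, beside 21.4% of all genes. In P, msp-36 held 346, 29.4 and 30.6 CPM in gld-4(RNAi), against 129, 20.3 and 20.3 CPM in control RNAi. Replicate 1 of gld-4(RNAi) thus stands more than 10-fold above its other 2 libraries.

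Compared with each other, gld-2(RNAi) inputs had more msp mRNA than gld-4(RNAi) inputs, with a median log2 difference of 2.15 over the tested members. Only 3 members were called higher and 0 lower (9.15% and 14.7% of all genes): msp-71 (3.03 ± 0.73, edgeR adjusted p = 0.014), msp-55 (2.64 ± 0.75, edgeR adjusted p = 0.028) and msp-57 (2.44 ± 0.77, edgeR adjusted p = 0.041). For msp-71 the gld-2(RNAi) inputs held 48.4, 14.8 and 15.3 CPM, against 5.93, 2.21 and 2.35 CPM in gld-4(RNAi), and it passed the filter only through gld-2(RNAi). With the replicate number as a block all 30 were called, with a median of 2.56, beside 10.8% of all genes. The number called without the block follows replicate 1 of gld-4(RNAi): 30 were called without that library (10.7% of all genes), 0 without gld-4(RNAi) replicate 2 or 3 (7.54% and 7.32%), and 1 without any one gld-2(RNAi) library (8.25% to 8.34%).

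Within the gradient, msp mRNA leaned towards polysomes in all 3 conditions. Here P and NP libraries of the same condition and replicate number were taken to come from the same gradient, which the labels do not state. The summed CPM of the family was 2.34, 2.70 and 3.16 times higher in P than in NP in the gld-2(RNAi) gradients 1, 2 and 3. It was 5.46, 3.0 and 3.0 times higher in gld-4(RNAi) and 3.84, 3.26 and 2.52 times higher in control RNAi. As shares of library counts the ratios were 1.84, 2.26 and 2.38 in gld-2(RNAi), 4.32, 2.95 and 2.76 in gld-4(RNAi) and 3.02, 2.88 and 2.18 in control RNAi. In control RNAi the median log2 P/NP ratio of the tested members was 1.95, against 0.05 over all genes. A lean towards P was not particular to the family. Among lists described below, the median was 1.39 for body wall muscle markers, 1.33 for intestine markers and 1.32 for the small MSP-domain and sperm-specific families. Medians under that of all genes were those of oocyte markers (-0.47) and of genes for sperm fate and transcription (-1.03). In each of the 9 gradients at least 29 of the 30 tested members lay above the median of all genes. The P/NP ratios are of relative levels and depend on the scaling. With library size alone the median of all genes moved to -0.31 in control RNAi, and that of the members to 1.56. The same scaling split all calls of P against NP into 363 higher and 1784 lower in gld-2(RNAi), 545 and 1448 in gld-4(RNAi) and 682 and 1911 in control RNAi, where TMM gave 929 and 971, 1024 and 885, and 1334 and 1067.

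The tests of P/NP depended on the replicate number. Without a block, 0 of 30 members were called higher in P in control RNAi (18% of all genes higher, 14.4% lower), 3 had an unadjusted p under 0.05, and DESeq2 called 12 (19.3% of all genes). In gld-2(RNAi) 1 member was called, msp-65 (1.70 ± 0.58, edgeR adjusted p = 0.048; 12.5% of all genes higher, 13.1% lower), and in gld-4(RNAi) 0 (13.8% higher, 11.9% lower; 0 at an unadjusted p under 0.05; DESeq2 0). None was called lower in any condition. With the block, which compares P and NP of the same replicate number, most members were called higher in P. The counts were 28 of 30 in gld-2(RNAi), 29 in gld-4(RNAi) and 29 in control RNAi, beside 14.5%, 19% and 20.9% of all genes. For msp-65, gld-2(RNAi) held 317, 117 and 125 CPM in P, against 105, 37.8 and 35.4 CPM in NP. Each gradient shows a similar ratio, while replicate 1 is the highest in both fractions. Leaving out replicate 1 called 29 of 30 in each condition, beside 13.7% of all genes in gld-2(RNAi), 15.8% in gld-4(RNAi) and 20% in control RNAi. Leaving out replicate 2 or 3 called 0, beside 6.74% to 15.5% of all genes.

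**Figure D4:**
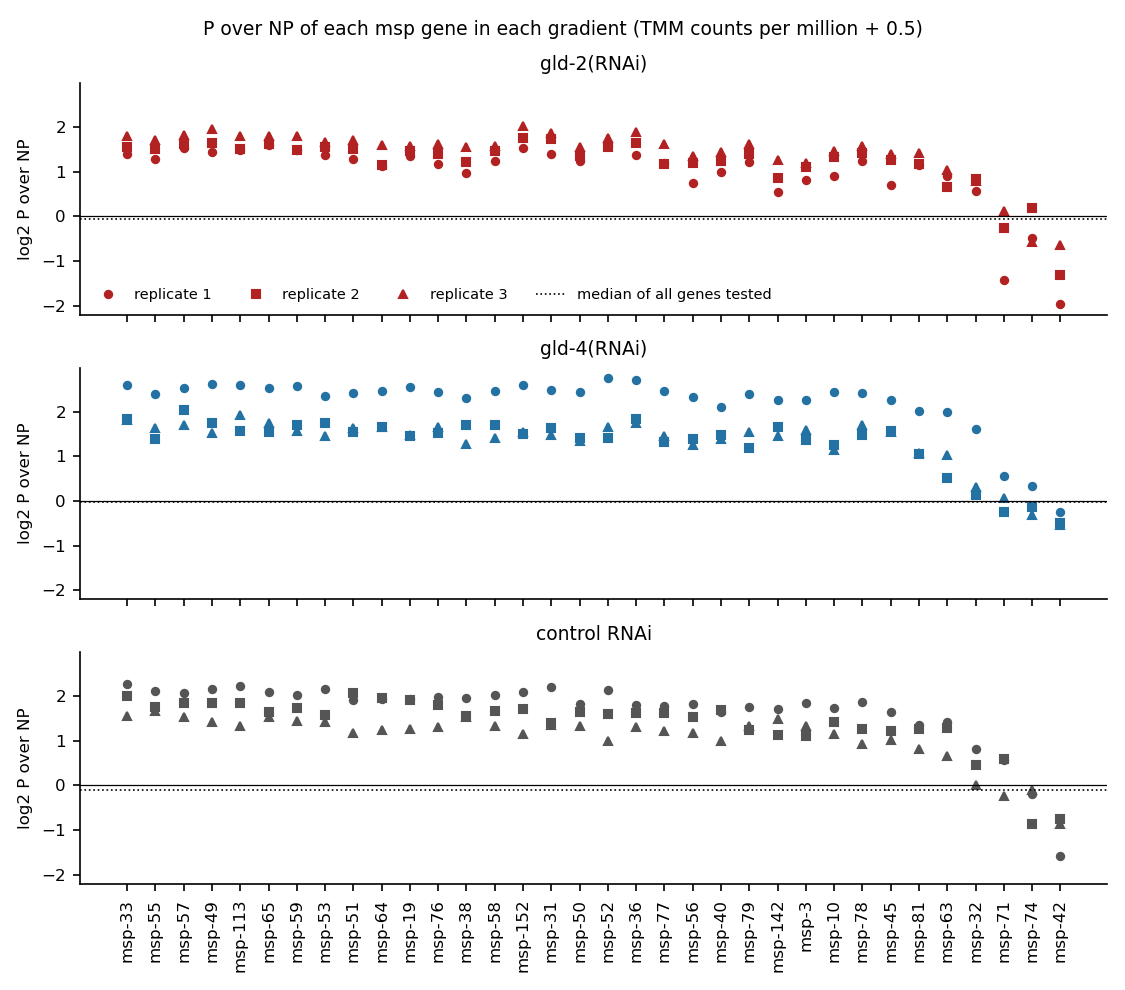
Log2 ratio of P over NP of each of the 34 msp genes in each gradient, taken as P and NP of the same replicate number (TMM-scaled CPM plus 0.5). Genes are ordered by the mean ratio in control RNAi, and a dotted line marks the median of all genes tested. Most members lie well above 0 in every gradient, gld-4(RNAi) replicate 1 is the highest of its panel, and msp-71, msp-74 and msp-42 lie near or under 0 at the right.

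The members that did not lean towards P were few. The pseudogene msp-71 had a log2 P/NP of -0.99 ± 0.97 in gld-2(RNAi), 0.43 ± 0.89 in gld-4(RNAi) and 0.55 ± 0.69 in control RNAi, the lowest of the tested members in each condition, and it was not called with the block either (edgeR adjusted p = 0.16, 0.22 and 0.068). In gld-2(RNAi) it held 27.4, 8.68 and 8.50 CPM in P, against 74.4, 10.5 and 7.83 CPM in NP. NP exceeded P in replicates 1 and 2, by most in replicate 1, and not in replicate 3. The pseudogene msp-42, under the filter, had 82 counts in the 3 P libraries of gld-2(RNAi), against 348 in NP, and 6 counts in P of control RNAi, against 48 in NP. With the lower filter its log2 P/NP was -1.83 ± 1.05 in gld-2(RNAi) and -2.69 ± 1.06 in control RNAi (edgeR adjusted p = 0.22 and 0.073), so it did not pass the test. The third annotated pseudogene, msp-52, lay among the coding members, with a log2 P/NP of 1.67 ± 0.58 in gld-2(RNAi) and 2.06 ± 0.93 in control RNAi. The short coding member msp-74 had 91 counts in P of gld-2(RNAi), against 145 in NP. Of the same length, msp-58 had a log2 P/NP of 1.42 ± 0.60 in gld-2(RNAi).

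Whether RNAi changed the place of msp mRNA in the gradient was tested as the change of P/NP relative to control RNAi. In gld-2(RNAi) the median change of the tested members was -0.57 on the log2 scale, lower in 30 of 30, against -0.14 over all genes. None was called (0 higher, 0 lower, 0 at an unadjusted p under 0.05, DESeq2 0), with 0.499% of all genes called higher and 0.499% lower. With a block for each gradient, 11 members passed an adjusted p of 0.05, all of them lower, among 20.7% of all genes that did so in that direction, and 0 reached 2-fold. One of these, msp-142, had a blocked change of -0.83 ± 0.20 (edgeR adjusted p = 0.0097). Without replicate 1 of both conditions the median was -0.10. In gld-4(RNAi) the median change was 0.39, 0 members were called, 0 had an unadjusted p under 0.05 and DESeq2 called 0, with 0.0135% of all genes called higher and 0.0135% lower. Without gld-4(RNAi) replicate 1 the median was -0.16.

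Genes of other sperm proteins were counted in gld-2(RNAi) input beside the 8.22% of all genes called higher. Of the small MSP-domain and sperm-specific families (ssp, msd, ssq, sss and smz names), 20 of 24 could be tested, 20 were called higher and 0 lower, with a median log2 change of 3.28. Only 12 of the 20 reached the filter's 100 counts in control RNAi alone, and these 12 were among the called. Under the filter, ssp-37 was lower at each replicate number, with 5.63, 3.59 and 3.91 CPM, against 6.72, 4.22 and 5.99 CPM in control RNAi. The others under it, ssp-32, ssp-33 and ssp-36, were higher at each replicate number. Among genes for MSP assembly and the pseudopod, 5 of 7 tested were called higher and 0 lower. They included the sperm phosphatase genes gsp-3 (4.40 ± 0.72) and gsp-4 (3.79 ± 0.87) and the kinase gene spe-6 (2.13 ± 0.53). None of these 5 reached 100 counts in control RNAi. The 2 that did were not called: spe-39 had a log2 change of -0.72 ± 0.13 (edgeR adjusted p = 0.0049), under 2-fold, and spe-5 one of 0.68 ± 0.46 (edgeR adjusted p = 0.26). All 3 tested genes of sperm chromatin proteins were called higher (spch-1, spch-2 and spch-3, median 3.78), and all 3 reached the minimum in control RNAi. Of the genes for activation and fertilization 17 were matched, 4 could be tested and 2 were called higher, fer-1 (4.35 ± 0.46), needed to fuse the sperm's membranous organelles, and the calcium channel gene spe-41 (4.31 ± 0.65). Both passed the filter only through gld-2(RNAi). The other 2 were hke-4.1 (-0.48 ± 0.13, edgeR adjusted p = 0.019, under 2-fold) and swm-1 (0.60 ± 0.35, edgeR adjusted p = 0.20). A gene under the minimum in control RNAi was tested because it was high elsewhere, so the counts of these lists are a description. In gld-4(RNAi) input none of these genes was called in either direction.

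Of 10 tested genes listed for sperm fate and transcription, 0 were called higher and 4 lower in gld-2(RNAi) input, beside 12.2% of all genes called lower. They were tra-2 (-1.79 ± 0.14), a receptor that promotes female fate, and fem-3 (-1.28 ± 0.33), which promotes male fate. Also lower were fog-1 (-1.15 ± 0.24), needed for sperm fate, and tra-1 (-1.04 ± 0.18), the last transcription factor of the sex pathway. The median of the 10 tested was -0.35. Listed but under the filter, fog-3 had 4.84, 1.07 and 1.15 CPM in gld-2(RNAi) input, against 0.384, 0.319 and 0.214 CPM in control RNAi. Also under it, her-1 had 2.03, 1.30 and 1.38 CPM, against 1.06, 0.557 and 1.07 CPM in control RNAi. Genes listed for reception of the MSP signal and for the response of oocytes and sheath had 0 of 14 called higher and 3 lower. These were the receptor gene vab-1 (-1.66 ± 0.11) and 2 genes that encode no receptor. The latter were oma-2 (-1.98 ± 0.22), a regulator of oocyte maturation, and puf-8 (-1.28 ± 0.14), an RNA-binding protein of the germ line.

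Markers of other tissues were read beside these changes. Sperm markers outside the family summed to 506 to 1456 CPM in gld-2(RNAi) input, 72.4 to 334 CPM in gld-4(RNAi) and 46.0 to 175.5 CPM in control RNAi, and 11 of 11 tested were called higher in gld-2(RNAi). All 11 are also in the lists above, and 4 of them reached the filter's minimum in control RNAi. In each group the highest value was that of replicate 1. Oocyte markers summed to 4424 to 8488 CPM in gld-2(RNAi) input, 20252 to 31152 CPM in gld-4(RNAi) and 15182 to 20300.3 CPM in control RNAi, with 9 of 16 tested called lower and 0 higher in gld-2(RNAi). Here replicate 1 was the lowest library of each group. Early embryo markers summed to 50.9 to 63.1 CPM in gld-2(RNAi) and 132 to 220.0 CPM in gld-4(RNAi). In control RNAi they summed to 183 to 262 CPM, of which nos-2 alone held 152, 184 and 234 CPM. In gld-2(RNAi) nos-2 held 27.7, 36.3 and 46.2 CPM. The sum in control RNAi is thus mainly that of nos-2. Whether nos-2 mRNA came from embryos or from the germ line was not tested. Of 3 tested, 2 were called lower in gld-2(RNAi), as were 12.2% of all genes. The third, sdz-24, was not called. It had 25.5, 7.17 and 8.59 CPM in gld-2(RNAi), against 13.4, 5.18 and 3.42 CPM in control RNAi. Of 11 body wall muscle and 9 intestine markers tested, 0 were called in either direction in gld-2(RNAi). Their sums were also highest in replicate 1 of each input group. Muscle markers had 5032, 4357 and 4203 CPM in gld-2(RNAi), 4576, 2650 and 2704 CPM in gld-4(RNAi), and 5211, 3748 and 4214 CPM in control RNAi. Intestine markers had 12818, 8716 and 10119 CPM in gld-2(RNAi), 15243, 11771 and 12601 CPM in gld-4(RNAi), and 13997, 10211 and 11013 CPM in control RNAi. The part of tissue composition in the msp values was not tested.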

How the data were processed

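The members and gene lists were chosen with earlier results of these data known. The authors removed adapters, aligned single reads with TopHat2 to WS220, discarded reads with several places, and summed exonic reads by gene in featureCounts (Subread 1.4.0). The deposited table holds these raw counts for 27 libraries. The names, the other deposited column used, came from the authors' comparison tables. Not used were the DESeq fold changes and p-values in those tables or their 72 columns of single samples. The luciferase spike was not used here, so P and NP are relative levels.

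Each comparison was fitted over 7418 genes by edgeR's robust quasi-likelihood F test with TMM scaling on the 6 libraries concerned (12 for changes of P/NP), with Benjamini-Hochberg adjustment over all genes tested. A gene was called at 2-fold or more with adjusted p no higher than 0.05. Genes with a mean under 100 normalized counts over the inputs were left out. Levels are TMM-scaled CPM. Percentages of summed counts use library totals. Libraries of the same replicate number correlated in their deviations at 0.497 to 0.905, above the minimum of 0.1 used here for a blocked fit. Libraries of other numbers correlated at up to 0.869, so this check cannot show that the numbers pair the libraries. Named with values were the 6 highest members, up to 3 per direction with the largest called change in each comparison, and others singled out after their values were seen: msp-3, msp-32, msp-33, msp-38, msp-40, msp-42, msp-50, msp-52, msp-58, msp-63, msp-64, msp-74, msp-142 and the genes of the lists. Lists were matched by name, and mfp-1, mfp-2, mfp-3, spe-7 and vet-4 found no match, nor did trp-3, another name of spe-41. Alternatives were library size as scaling, DESeq2, other filters, an adjusted p alone, a replicate block and leaving out libraries. On simulated counts of 7418 genes, the gld-2(RNAi) input fit recovered 182 of 200 changed genes with 12 false calls, the P/NP fit of control RNAi 182 with 4, and the fit for the change of P/NP in gld-2(RNAi) 148 with 5. The simulated libraries were drawn independently, with changes above 2-fold and no rise shared by replicate 1. These rates therefore do not carry over to the msp genes. Replicates of a group differed beyond counting noise (chi-square per degree of freedom 9.70 to 215). No sequences or positions are shown. The tools were edgeR 4.0.16, limma 3.58.1 and DESeq2 1.42.0 in R 4.3.3, and numpy 2.4.6, pandas 2.3.3 and matplotlib 3.10.9 in Python 3.11.15.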

Additional observations from a re-analysis of the deposited data

Results flagged for a closer look

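The difference between the 2 knockdowns in the input passed the direct test for 3 of 30 members, with gld-2(RNAi) the higher. Of all genes tested, 9.15% were called higher in this comparison. The log2 difference was 3.03 for msp-71, 2.64 for msp-55 and 2.44 for msp-57 (edgeR adjusted p = 0.014, 0.028 and 0.041). In the inputs msp-71 had mean normalized counts of 334 in gld-2(RNAi), 44.8 in gld-4(RNAi) and 27.9 in control RNAi, so that it passed the filter of 100 only through gld-2(RNAi), the group where it is high. With every gene that had a count as the filter, msp-55 and msp-57 no longer passed, nor did msp-57 with library size as the scaling. Without gld-4(RNAi) replicate 2 or 3, 0 members were called (7.54% and 7.32% of all genes). Without any one gld-2(RNAi) library 1 member was called (8.25% to 8.34%).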

How the results depend on the processing

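Members called lower stayed at 0 in all 144 alternatives, and members called higher stayed within 1.5 times in 109 of 144. With the replicate number as a block, calls became 1 in gld-4(RNAi) input (1.11% of all genes), 30 in gld-2(RNAi) over gld-4(RNAi) (10.8%) and 1 in gld-4(RNAi) P (1.25%). For P/NP they became 28, 29 and 29 in gld-2(RNAi), gld-4(RNAi) and control RNAi (14.5%, 19% and 20.9%). Beyond the values in the report the pairing moved no count of calls by over 1.5 times. DESeq2 gave 21 in gld-2(RNAi) over gld-4(RNAi) (10.7% of all genes), and 22 and 12 for P/NP in gld-2(RNAi) and control RNAi (15.4% and 19.3%). A mean of at least 10 gave 5 in gld-2(RNAi) over gld-4(RNAi) (8.94% of all genes). It gave 14 in gld-2(RNAi) P (9.22%) and 0 for P/NP in gld-2(RNAi) (11%). With no filter 3 were called in gld-2(RNAi) NP (9.05% of all genes) and 4 in gld-2(RNAi) P (6.27%). For P/NP in gld-2(RNAi) 0 were called with no filter (6.91%), and library size alone also gave 0 (4.89%). The cause of these counts was not tested. Leaving out 1 library or gradient gave 0 to 30 calls for gld-2(RNAi) over gld-4(RNAi), beside 7.32% to 10.7% of all genes. It gave 12 to 30 in gld-2(RNAi) NP (6.81% to 9.53%) and 0 to 30 in gld-2(RNAi) P (2.56% to 6.38%). For P/NP it gave 0 to 29 in each condition, beside 6.74% to 20% of all genes. The members' median log2 change ran from -0.52 to 1.72 in gld-4(RNAi) input, from -0.69 to 1.78 in its NP, from -0.90 to 2.47 in its P and from -0.16 to 0.59 for its change of P/NP. For msp-36 it ran from -0.45 to 1.96 in the input and from -0.70 to 2.89 in P, and for msp-40 from -0.17 to 2.13. Each lower end lacked replicate 1 of gld-4(RNAi). Names from RefSeq in place of the deposited ones, which add 1 gene, left every ratio of summed counts as it was to within its spread, and TMM scaling moved that of P over NP in gld-2(RNAi) to 2.71. Unique mapping and 3 libraries per group limit all single members.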

Other observations

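One gene of the sperm fate list, fog-3, needed in C. elegans for germ cells to become sperm, lay under the filter and was singled out after its values were seen. Its input level was 9.29, 11.9 and 9.70 CPM in gld-4(RNAi), against 0.384, 0.319 and 0.214 CPM in control RNAi, with no overlap. With a mean of at least 10 counts as the filter, which it did not reach in control RNAi, the log2 change was 5.03 ± 0.35 (edgeR adjusted p = 0.012). In gld-2(RNAi) it had 4.84, 1.07 and 1.15 CPM (2.97 ± 0.80 over control RNAi, edgeR adjusted p = 0.024), and gld-2(RNAi) was lower than gld-4(RNAi) by a log2 difference of -2.12 ± 0.66 (edgeR adjusted p = 0.048). The order of the 3 conditions for fog-3 thus differs from that of the msp genes, which were highest in gld-2(RNAi).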
